A study of Mus musculus with 16 samples.

Results

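The 10 genes described here are the p53 family (Trp53, Trp63 and Trp73), the p53 inhibitors Mdm2 and Mdm4, and the p53 target genes Ccng1, Trp53inp1, Zmat3, Aen and Phlda3, taken by name from the 40840 genes of the count table. All 10 were among the 20444 genes that had at least 10 counts in total over the libraries and were tested. The mouse cells carried the label p53-/-; Myc hepatoblasts in all groups, which names a line of liver progenitor cells without the tumor suppressor p53 and with the oncogene Myc overexpressed, used as a model of hepatocellular carcinoma (HCC). The counts check neither the knockout nor the cell type: Trp53 was counted in every library, and hepatoblast markers were mixed. Hnf4a, Alb and Afp were at or near 0, while Dlk1, Krt18, Krt19, Sox9 and Foxa2 were counted in every library. For 48 hours or 7 days the cells were kept in 8.5 µM sorafenib, a multikinase inhibitor used in HCC, or in DMSO, the vehicle. Each of the 4 groups held 4 libraries of poly(A) RNA, with total counts per library from 16586254 to 30828427. The kind of p53 knockout allele is not given in the sources used here, no library of p53-proficient cells is part of the comparison, and no source states that replicates were separate cultures, so the p-values measure only the spread between these libraries.

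p53, the product of Trp53, is a transcription factor that is held at a low level by the ubiquitin ligase Mdm2 and by the related protein Mdm4. When DNA is damaged or the cell is otherwise stressed, p53 escapes this control and binds its response element, a doubled short motif near its target genes, among them Mdm2 itself. The targets arrest the cell cycle, repair DNA, alter metabolism or trigger apoptosis, and many of them also answer to other transcription factors. The question of the comparison was which of these classical targets still responded to the drug in cells labelled p53-/-.

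The identity of the cells was checked against marker genes. Of 12 hepatoblast markers, Hnf4a had no count in any library, Alb had at most 1 count and Afp at most 14, while Epcam ranged from 1 to 37 counts. In contrast Krt18, Krt19, Sox9 and Foxa2 had at least 99 counts in every library. Dlk1, another hepatoblast marker, ranged from 3923 to 32979 normalized counts (counts scaled by library size and TMM factor) and held most of the marker sum, which ranged from 35004 to 36371 with DMSO and from 12891 to 14810 with sorafenib at 48 hours, and from 18791 to 20607 with DMSO and from 6902 to 7169 with sorafenib at 7 days. Single hepatoblast markers moved both ways: 2 rose and 5 fell of 9 tested at 48 hours, and 3 rose and 6 fell at 7 days. Dlk1 fell by 1.63 and by 2.06 on the log2 scale, while Sox9 rose by 1.64 and by 1.37 and Foxa2 by 1.77 and by 0.84. Of 9 fibroblast and stellate cell markers, 8 had at least 10 counts in a library, led by Col1a1 with 40446 to 84703 normalized counts and Acta2, whereas the stellate cell marker Lrat was at 0. Their sum ranged from 50464 to 53465 with DMSO and from 137575 to 158271 with sorafenib at 48 hours, and from 71816 to 73857 with DMSO and from 115940 to 121222 with sorafenib at 7 days, a sum held mostly by Col1a1 and Acta2. Of the 8 tested, 5 rose and 2 fell at 48 hours, and 4 rose and 4 fell at 7 days. Beside both marker lists, 26.9% of all tested genes rose and 27.7% fell at 48 hours. At 7 days 28.9% rose and 27.9% fell. Acta2 rose by 3.81 and by 1.39, while Pdgfra fell by 2.11 and by 2.26, and Dcn rose by 0.43 at 48 hours and fell by 2.30 at 7 days. The immune markers Adgre1 and Cd3e were at 0 in every library, and at most 1 of 5 immune and 2 of 4 endothelial markers of a group reached 10 counts in a library. The part of these shifts in the results that follow was not tested. In bulk samples, fewer cells of a type and less RNA per cell cannot be told apart.

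A single library, sorafenib for 48 hours replicate 2, stood apart. Its median log2 deviation from the other replicates was -0.64 to -0.62 on chromosomes 15 to 19 and X, and 0.07 to 0.10 on chromosomes 1 to 14. Of the 10 genes only Trp63 lies on the lowered chromosomes, and the other 9 lie where the library was slightly raised. It was the highest of its group for Trp53, Mdm2, Mdm4, Trp53inp1, Zmat3 and Aen. Without it the log2 fold change at 48 hours was 0.50 for Mdm2, in place of 0.53, and -0.05 for Mdm4, in place of -0.02, and calls that changed are given with their genes. For named p53 targets of the further list that lie there, the fold change at 48 hours without this library is given. Their differences between the times include it. Among the markers, Acta2 had 47772 normalized counts in this library, against 71432, 73383 and 69338 in the others of its group. The values of Acta2 and the marker sums given above include this library.

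The targeted gene came first. Trp53 (chr11:69469669-69482701, plus strand, GRCm39) had 3389, 3614, 3610.0 and 4147 normalized counts in the 4 libraries with DMSO for 48 hours and 1782, 1917, 1766 and 1908 with sorafenib. At 7 days it had 2312, 2034, 2130.4 and 2036 with DMSO and 2785, 2495, 2487 and 2514 with sorafenib. Trp53 transcripts were thus counted in every library, with the highest level at 48 hours in DMSO, and the groups overlapped at neither time. Counts per gene do not show whether these reads carry an intact coding sequence, so they do not check the knockout.

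Trp53 fell by 1.00 on the log2 scale after 48 hours of sorafenib (SE 0.0587, adjusted p = 9.86e-12, from the quasi-likelihood test of edgeR, adjusted over all tested genes by Benjamini-Hochberg, as is every adjusted p below). At 7 days it rose by 0.27 (SE 0.0579, adjusted p = 0.000437). The direction therefore differed between the times, and the difference of 1.27 passed its own test in edgeR (adjusted p = 2.03e-10). With DMSO alone, Trp53 was lower at 7 days than at 48 hours by a log2 difference of -0.80 (adjusted p = 5.45e-10, edgeR), so the 7 day comparison started from a lower control level. Exons of Trp53 share 263 bases with Wrap53 and 156 bases with Gm57392 on the opposite strand, and the strand setting of the counting is not given in the sources used here.

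Levels of different genes were compared per kilobase of exon, over all annotated exons of a gene, used or not, so the order is approximate. On this scale Trp53 was the highest of the 10 genes in DMSO at 48 hours. It had 500.1 ± 43.7 normalized counts per kilobase (SD, n = 4). Ccng1 was next with 296 ± 16.3. Mdm4 with 177 ± 3.27 and Mdm2 with 173 ± 8.03 overlapped and had no order between them. Phlda3, Trp53inp1, Zmat3 and Aen followed with 161, 107, 73.7 and 57.2, each separate from its neighbour. With sorafenib at 48 hours Ccng1 led with 425 ± 11.7, and Phlda3 (271 ± 39.2), Mdm2 (250.2 ± 13.1) and Trp53 (249.8 ± 10.9) overlapped behind it. At 7 days Ccng1 and Trp53 overlapped at the top with DMSO (294 ± 11.1 and 288 ± 17.7), while with sorafenib Ccng1 (384 ± 9.85) stood above Trp53 (348 ± 19.5).

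The relatives of p53, which bind much the same response element and act mainly in epithelial and neural development, were close to absent. Trp63 (chr16:25502513-25710852) had 11 counts in all 16 libraries together and at most 3 in any. Trp73 (chr4:154140706-154224665) had 44 counts in all. Its 4 libraries held 3, 3, 0 and 2 counts with DMSO and 0, 0, 6 and 4 with sorafenib at 48 hours, then 8, 9, 4 and 2 with DMSO and 2, 0, 0 and 1 with sorafenib at 7 days.

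Trp63 did not pass the test in any comparison (log2 fold change 0.30 at 48 hours and 0.37 at 7 days, adjusted p = 0.870 and 0.799, edgeR), and at this depth no difference was detectable. Trp73 was called lower at 7 days (log2 fold change -2.72, SE 0.933, adjusted p = 0.0178, edgeR), from 23 counts summed over the DMSO libraries to 3 over the sorafenib libraries. The ratio of these sums, corrected for library size, was 0.132 with a 95% exact interval of 0.0254 to 0.437, which covers counting error only. The 2 groups overlapped, the exact two-sided permutation test gave p = 0.0571, and the call was lost when either of 2 DMSO libraries (replicates 1 and 2) or either of 2 sorafenib libraries (replicates 2 and 3) was left out, with an adjusted p of up to 0.0565 in edgeR. The response of Trp73 differed between the times by -3.35 (adjusted p = 0.0556, edgeR), and by -3.68 without sorafenib for 48 hours replicate 2 (adjusted p = 0.00979, edgeR). Trp73 also shares 280 bases of exon with the antisense gene Trp73os.

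**Figure D1:**
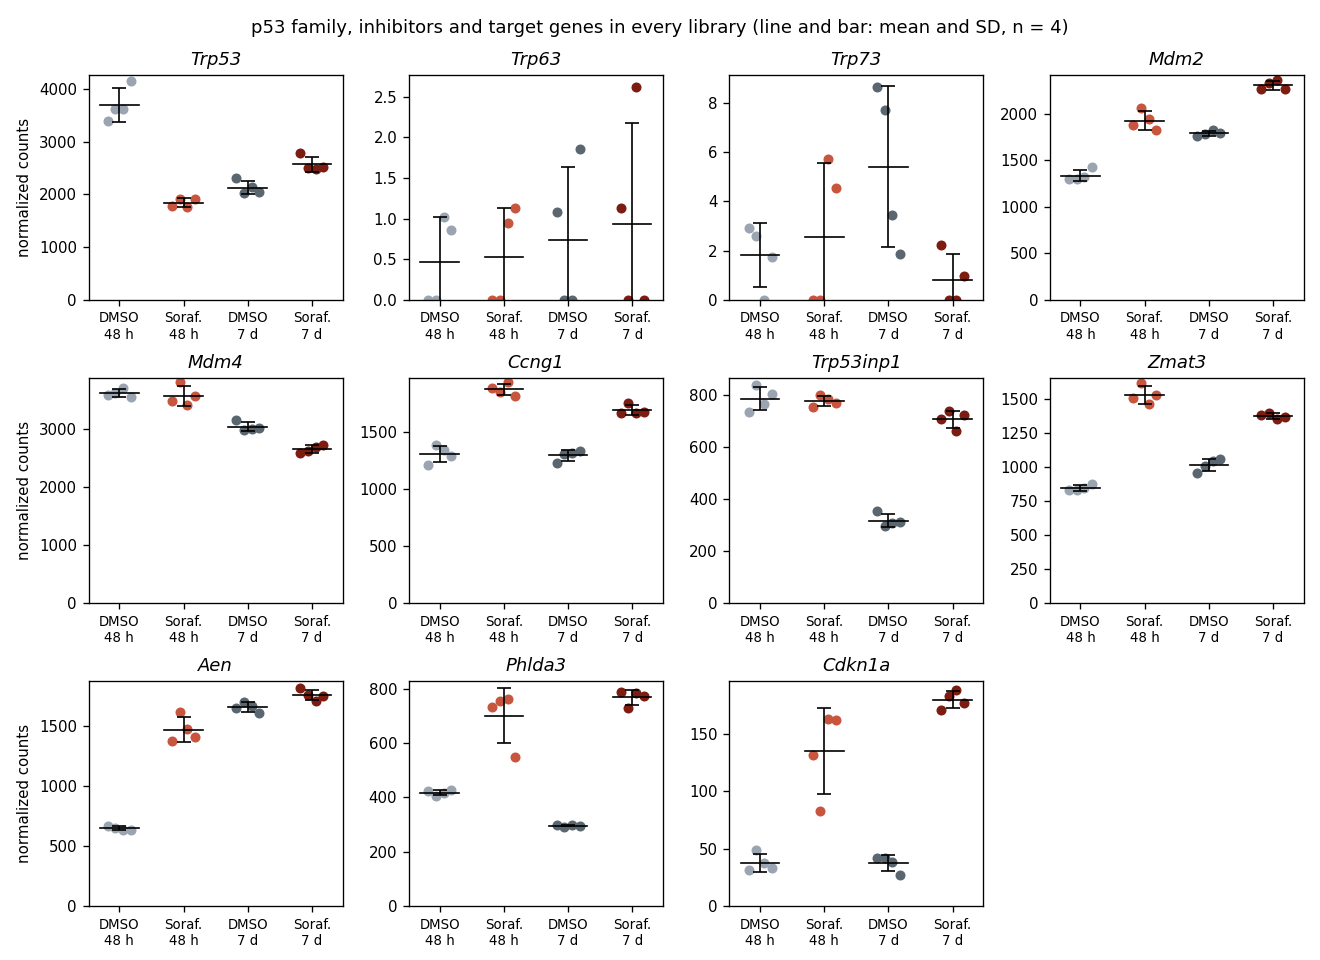
Normalized counts (linear axis from 0, a separate scale for each gene) of the 10 genes and of Cdkn1a in every library, by treatment (DMSO or sorafenib, written Soraf.) and time. Points are libraries, and the line and bar are the mean and SD of 4. Trp53 in DMSO at 48 hours lies between 3389 and 4147, above every other group, and Trp53inp1 in DMSO at 7 days lies between 297 and 355, below every other group.

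Beyond Trp53 and its relatives, 5 genes rose after 48 hours of sorafenib, namely Mdm2, Ccng1, Zmat3, Aen and Phlda3. With Trp53 lower, 6 of the 10 genes were called in edgeR, against 54.6% of all tested genes (26.9% higher and 27.7% lower). The groups did not overlap for 6 of the 10, against 48% of all genes. At 7 days 6 genes rose (Trp53, Mdm2, Ccng1, Trp53inp1, Zmat3 and Phlda3) and 2 fell (Mdm4 and, on few counts, Trp73), against 56.8% of all genes called (28.9% higher and 27.9% lower). The groups did not overlap for 8 of the 10, against 56.8% of all genes (28.5% higher and 28.4% lower). The median log2 fold change of the 10 genes was 0.52 at 48 hours and 0.37 at 7 days, beside -0.05 and 0.02 over all tested genes. Against all tested genes, the share of the 10 genes called was thus near the background at 48 hours and above it at 7 days. That background, here and below, includes genes with few counts. With at least 10 counts in every sample, 9196 of 12158 genes were called at 48 hours and 9146 at 7 days. The background is thus higher among such genes, and Trp63 and Trp73 are not among them. The share of the 10 genes called at 7 days is therefore not read as a result about these genes.

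The inhibitors behaved differently from each other. Mdm2 (chr10:117524780-117546730, minus strand), which marks p53 for degradation and is itself a p53 target, had 1296, 1302, 1321 and 1428 normalized counts with DMSO and 1884, 2063, 1943 and 1825 with sorafenib at 48 hours. At 7 days the values were 1762, 1782, 1827 and 1791 with DMSO and 2265, 2333, 2368 and 2268 with sorafenib. Every sorafenib library was above every DMSO library of its time. Mdm2 rose by 0.53 at 48 hours (SE 0.0411, adjusted p = 8.75e-10) and by 0.37 at 7 days (SE 0.0399, adjusted p = 1.21e-07, edgeR). With DMSO alone it was higher at 7 days than at 48 hours by 0.42 (adjusted p = 3.54e-08, edgeR). Exons of Mdm2 share 348 bases with Gm56970 on the opposite strand.

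Mdm4 (chr1:132887222-132958299, minus strand), which blocks the activation domain of p53 without a strong ligase activity of its own, had 3586, 3609, 3704 and 3547 normalized counts with DMSO and 3471, 3814, 3409 and 3559 with sorafenib at 48 hours. These groups overlapped, and the log2 fold change was -0.02 (SE 0.0356, adjusted p = 0.667, edgeR). At 7 days the values were 3145, 2980.2, 2999 and 3012 with DMSO and 2586, 2613, 2695 and 2723 with sorafenib, which do not overlap, and Mdm4 fell by 0.19 (SE 0.0358, adjusted p = 0.000109, edgeR). At this time, then, the inhibitor that is a p53 target rose and its relative fell.

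The 5 other targets form 3 patterns over the times. Ccng1 and Zmat3 rose at both times. Ccng1 (chr11:40639377-40646148, minus strand) encodes cyclin G1, which brings a phosphatase to Mdm2. It had 1212, 1379, 1336 and 1289 normalized counts with DMSO and 1883, 1848, 1934 and 1814 with sorafenib at 48 hours. Its values at 7 days were 1222, 1305, 1312 and 1333 with DMSO and 1666, 1753, 1665 and 1669 with sorafenib. The DMSO level was alike at the 2 times (log2 difference -0.01, SE 0.0423, adjusted p = 0.843, edgeR), and each sorafenib group lay above it. Ccng1 rose by 0.52 at 48 hours (SE 0.0422, adjusted p = 1.62e-09) and by 0.38 at 7 days (SE 0.0419, adjusted p = 1.2e-07, edgeR), and the difference of -0.13 between the times did not pass (SE 0.0594, adjusted p = 0.0857, edgeR). Without sorafenib for 48 hours replicate 2 it was -0.14 and passed (adjusted p = 0.0266, edgeR). Exons of Ccng1 share 114 bases with Nudcd2 on the opposite strand.

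Zmat3 (chr3:32388941-32420163, minus strand), an RNA-binding zinc finger protein that alters splicing, had 829.9, 828, 844 and 872 normalized counts with DMSO and 1506, 1613, 1462 and 1529 with sorafenib at 48 hours. After 7 days there were 953, 1007, 1041 and 1055 with DMSO and 1385, 1399, 1354 and 1364 with sorafenib. No sorafenib library came near a DMSO library at either time. Zmat3 rose by 0.85 at 48 hours (SE 0.0409, adjusted p = 3.96e-13) and by 0.44 at 7 days (SE 0.0400, adjusted p = 8.8e-09, edgeR), and the later rise was smaller by a log2 difference of -0.42 (adjusted p = 7.45e-06, edgeR).

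These 2 genes carry the letters of a p53 response element near their start, read from the GRCm39 genome in the 5000 bases on either side of the canonical start. The sequences are shown because they are the closest matches among the 10 genes. Each is 20 bases, 2 abutting motifs of 10, 5′ to 3′ on the strand of the gene, with the 4-base core of each motif in capitals.
Zmat3, chr3:32418480-32418499, intron, 1409 bases after the start, 0 mismatches: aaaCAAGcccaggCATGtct
Zmat3, chr3:32424300-32424319, outside the transcript, 4411 bases before the start, 1 mismatch: gagCAAGtctgggCTTGtta
Ccng1, chr11:40646289-40646308, outside the transcript, 170 bases before the start, 1 mismatch: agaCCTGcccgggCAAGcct
Ccng1, chr11:40645763-40645782, intron, 356 bases after the start, 1 mismatch: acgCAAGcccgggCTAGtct

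A match with at most 2 mismatches, none of them at the C or G of a core, was found near 3 of the 10 genes, the third being Trp73, beside 2145 of 21734 protein-coding genes (9.87%). A match with 0 mismatches was found near 42 protein-coding genes (0.193%), among them Zmat3. Of the other p53 targets described below, 16 of 45 (35.6%) had a match. A match is a description of the letters and not of binding. Where none was found, as for Mdm2, Trp53inp1, Aen and Phlda3, no stretch of this window met these limits. Elements with more mismatches, or with bases between the 2 motifs, would be missed within the window.

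Aen was higher with sorafenib mainly at 48 hours. Aen (chr7:78545602-78560957, plus strand), a nuclease that promotes apoptosis, had 669.6, 656, 636 and 635 normalized counts with DMSO and 1378, 1615, 1480.0 and 1411 with sorafenib at 48 hours. At 7 days it had 1652, 1705, 1670.3 and 1608 with DMSO and 1817, 1763, 1708 and 1756 with sorafenib. The DMSO libraries of 7 days thus lay in or above the upper range of the sorafenib libraries of 48 hours, overlapping with them by 1 library, and the sorafenib libraries of 7 days lay above both. Aen rose by 1.18 at 48 hours (SE 0.0461, adjusted p = 1.58e-14, edgeR), and with DMSO alone it was higher at 7 days than at 48 hours by 1.35 (SE 0.0454, adjusted p = 7.53e-15, edgeR).

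At 7 days the log2 fold change of Aen was 0.09 (SE 0.0426) and did not pass (adjusted p = 0.0957, edgeR), although the groups did not overlap. It passed in 4 of 25 alternatives, among them the fit without sorafenib for 48 hours replicate 2 (adjusted p = 0.0196). The response was smaller at 7 days by a log2 difference of -1.09 (adjusted p = 3.44e-11, edgeR). Exons of Aen share 1214 bases with Gm73250 on the opposite strand.

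Trp53inp1 showed the reverse order. Trp53inp1 (chr4:11156412-11175230, plus strand), a nuclear protein that promotes p53 phosphorylation and autophagy, had 736, 839.8, 768 and 806 normalized counts with DMSO and 755, 799.9, 787 and 772 with sorafenib at 48 hours. Its counts at 7 days were 355, 297, 306 and 313 with DMSO and 708, 739.9, 663 and 723 with sorafenib. The groups overlapped at 48 hours, while at 7 days the DMSO libraries alone were low. The log2 fold change was -0.02 at 48 hours (SE 0.0543, adjusted p = 0.816, edgeR), and Trp53inp1 rose by 1.16 at 7 days (SE 0.0584, adjusted p = 8.24e-13, edgeR). With DMSO alone it was lower at 7 days than at 48 hours by -1.31 (SE 0.0579, adjusted p = 3.57e-13, edgeR).

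Phlda3 rose at both times and more at 7 days. Phlda3 (chr1:135693809-135697686, plus strand), a small protein that competes with the kinase Akt for membrane lipids, had 425, 403, 417 and 426 normalized counts with DMSO and 732, 756, 763 and 549.7 with sorafenib at 48 hours. At 7 days it had 298, 293, 299 and 295 with DMSO and 786, 728, 784 and 773 with sorafenib. At 48 hours sorafenib replicate 4 lay well below the other 3 and still above every DMSO library. Phlda3 rose by 0.74 at 48 hours (SE 0.0765, adjusted p = 5.55e-08) and by 1.37 at 7 days (SE 0.0774, adjusted p = 5.01e-12, edgeR), with a difference of 0.63 between the times (adjusted p = 0.000106, edgeR).

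For the genes whose 2 groups did not overlap, a two-sided exact permutation test on the 8 libraries gave p = 0.0286, the smallest it can give. This value follows from the lack of overlap alone and adds nothing to it.

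**Figure D2:**
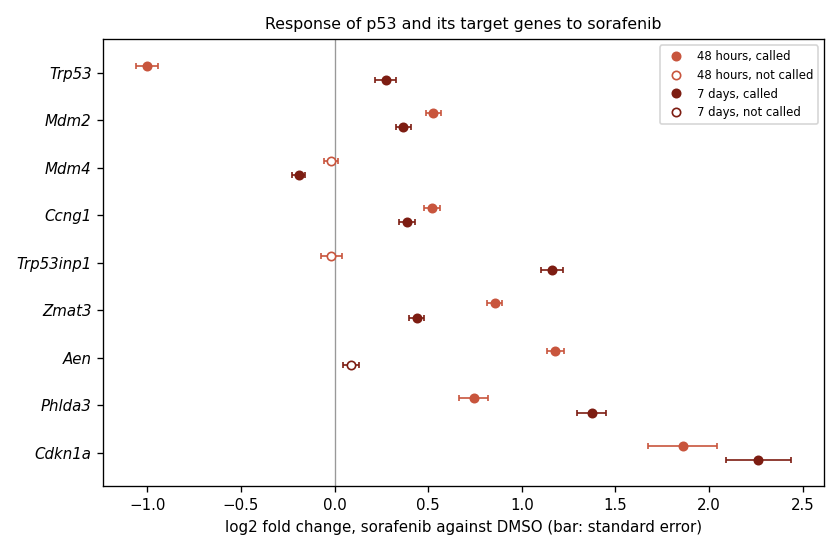
Log2 fold change of sorafenib against DMSO (x axis, linear in log2) for 8 of the 10 genes and Cdkn1a at 48 hours (light) and 7 days (dark). Filled points passed the edgeR test, open points did not, and bars are standard errors. Trp63 and Trp73 are left out for their low counts. Trp53 lies at -1.0 and 0.27, Aen at 1.18 and 0.09, and Trp53inp1 at -0.02 and 1.16.

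The size of the response was compared between the times with the interaction of treatment and time, which uses the DMSO libraries of both times. Of the 10 genes, 3 had a higher response at 7 days (Trp53, Trp53inp1 and Phlda3) and 4 a lower one (Mdm2, Mdm4, Zmat3 and Aen), against 36.8% of all tested genes (15.5% higher and 21.3% lower). With at least 10 counts in every sample, 6827 of 12158 genes were called. The difference was -0.17 for Mdm4 (adjusted p = 0.0105) and -0.16 for Mdm2 (adjusted p = 0.0335, edgeR). The call of Mdm2 was lost in 14 of 24 alternatives, 1 of them an added threshold on the fold change, with an adjusted p of up to 0.472. Scaled by total counts only, 2 of the 10 genes had a lower response (Zmat3 and Aen), and the share of all called genes with a higher response went from 42.1% to 55.6%.

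In DMSO alone, 3 of the 10 genes were higher at 7 days than at 48 hours (Mdm2, Zmat3 and Aen) and 4 were lower (Trp53, Mdm4, Trp53inp1 and Phlda3), against 49.4% of all tested genes (23.9% higher and 25.5% lower). With at least 10 counts in every sample, 8635 of 12158 genes were called. The groups did not overlap for 7 of the 10, against 50.8% of all genes. The log2 difference was 0.27 for Zmat3 (adjusted p = 1.66e-05), -0.25 for Mdm4 (adjusted p = 5.65e-06) and -0.50 for Phlda3 (adjusted p = 3.29e-05, edgeR). These DMSO libraries are the controls of the sorafenib comparisons too, so the 2 kinds of difference are not independent. Aen and Trp53inp1, the 2 targets that changed most with time in DMSO, are those that passed the sorafenib test at 1 time only.

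Cdkn1a, the cell cycle inhibitor p21 and the best known p53 target, is not one of the 10 genes and serves for comparison. It had 31.3, 48.6, 37.8 and 33.7 normalized counts with DMSO and 132, 83.2, 163 and 162 with sorafenib at 48 hours. The 7 day libraries held 42.2, 42.0, 38.8 and 26.9 with DMSO and 171, 184, 188 and 177 with sorafenib. The levels were low and the groups apart at both times. Cdkn1a rose by 1.86 at 48 hours (SE 0.186, adjusted p = 3.6e-08) and by 2.26 at 7 days (SE 0.174, adjusted p = 6.69e-10, edgeR). It lies on chromosome 17, and without the library with lowered counts the value at 48 hours was 2.01. Per kilobase it had 6.26 ± 1.27 normalized counts in DMSO at 48 hours (SD, n = 4), below every one of the 10 genes except Trp63 and Trp73.

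The element upstream of Cdkn1a, shown as the reference for those of Zmat3 and Ccng1, lies outside the transcript 2836 bases before the start and has 1 mismatch.
Cdkn1a, chr17:29309902-29309921, plus strand: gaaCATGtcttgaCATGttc

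A wider list of 45 further p53 targets, Cdkn1a included, moved in both directions. At 48 hours 22 rose, 13 fell and 10 did not pass, and at 7 days 26 rose, 11 fell and 8 did not pass, against 54.6% and 56.8% of all tested genes called. Their median log2 fold change was 0.24 at 48 hours and 0.30 at 7 days, and the groups did not overlap for 35 and 39 of the 45, against 48% and 56.8% of all genes. The response differed between the times for many of them, with 15 higher and 14 lower at 7 days, against 36.8% of all tested genes (15.5% higher and 21.3% lower). With at least 10 counts in every sample, this difference was called for 6827 of 12158 genes. The marker sums, led by Col1a1 and Acta2 on one side and Dlk1 on the other, moved with sorafenib at both times as given above, with single markers going both ways, and their part in these counts was not tested.

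Of 8 targets that arrest the cell cycle, 5 rose and 2 fell at 48 hours, and 6 rose and 2 fell at 7 days. Beside this and each role below, 26.9% of all tested genes were higher and 27.7% lower at 48 hours. At 7 days the shares were 28.9% higher and 27.9% lower. Gadd45a, which binds PCNA and Cdk1 and is also a target of stress kinases, went from 144 ± 16.9 to 1825 ± 172 normalized counts (SD, n = 4) at 48 hours, a log2 fold change of 3.66 (adjusted p = 9.55e-19, edgeR), and rose by 3.40 at 7 days (adjusted p = 1.41e-18, edgeR). Plk2, a polo-like kinase, rose by 1.74 at 48 hours and 1.78 at 7 days. Ptprv, a receptor-type phosphatase, went from 425 ± 28.2 to 12 ± 4.82 at 48 hours, and Btg2, an antiproliferative cofactor, fell by 0.84 at 48 hours and by 1.98 at 7 days. The arrest targets thus held both the largest rise and the largest fall among the genes of this list named here.

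Of 10 apoptosis targets, 6 rose and 2 fell at 48 hours, and 5 rose and 4 fell at 7 days. Perp, a membrane protein of desmosomes, went from 107 ± 7.92 to 936 ± 45.6 normalized counts at 48 hours, a rise of 3.13 (adjusted p = 2.14e-18, edgeR), and rose by 2.88 at 7 days. Bax, which permeabilizes mitochondria, rose by 0.72 at 48 hours and 0.23 at 7 days. Bbc3, which encodes Puma, rose by 0.41 at 48 hours and by 1.43 at 7 days. Pmaip1, which encodes Noxa and lies on a chromosome with lowered counts in 1 library, changed direction, from 0.43 at 48 hours (0.57 without that library) to -1.56 at 7 days (adjusted p = 0.0015 and 1.07e-10, edgeR). Pidd1 fell at both times, by 0.81 and by 0.33, and Siva1 fell by 0.36 at 48 hours and had -0.03 at 7 days (adjusted p = 0.662, edgeR). The BH3-only genes Bbc3 and Pmaip1 thus parted at 7 days.

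Of 5 genes of DNA repair and nucleotide supply, 3 rose and 1 fell at 48 hours, and 4 rose at 7 days. Rrm2b, a ribonucleotide reductase subunit, rose by 1.64 at 48 hours (1.77 without the library with lowered counts, since it lies on chromosome 15) and by 1.24 at 7 days. Polk, a translesion polymerase, rose by 0.54 and by 0.95. Ddb2, a damage sensor of nucleotide excision repair, fell by 0.38 at 48 hours and rose by 0.40 at 7 days (adjusted p = 0.00114 and 0.00222, edgeR).

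Of 11 metabolic and stress targets, 4 rose and 2 fell at 48 hours, and 7 rose and 2 fell at 7 days. The sestrins, which restrain mTORC1, went opposite ways. Sesn2, also a target of the integrated stress response, went from 549 ± 15.5 to 2492 ± 93.5 normalized counts at 48 hours (log2 fold change 2.18, adjusted p = 2.14e-19, edgeR) and rose by 2.21 at 7 days, while Sesn1 went from 2348 ± 73.8 to 676 ± 45.3 (log2 fold change -1.80, adjusted p = 3.68e-16, edgeR) and fell by 2.10 at 7 days. Tigar, a phosphatase that slows glycolysis, rose by 1.4 at 48 hours and by 0.23 at 7 days. Ephx1, an epoxide hydrolase, rose by 0.82 and by 1.61. Fdxr, the ferredoxin reductase of mitochondria, fell by 0.78 and by 1.55.

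The 3 other feedback genes of p53 were called at both times. The ubiquitin ligase genes Cop1 and Rchy1 rose, by 0.45 and 0.24 at 48 hours and by 0.24 and 0.40 at 7 days, and Ppm1d, which encodes the phosphatase Wip1, fell by 0.38 and by 0.67. Of 8 targets with other roles, 2 rose and 5 fell at 48 hours, and 2 rose and 2 fell at 7 days. Eda2r, a receptor for ectodysplasin on the X chromosome, rose by 2.06 at 48 hours (2.17 without the library with lowered counts) and by 2.98 at 7 days. Cd82, a tetraspanin, fell by 1.07 at 48 hours and had a log2 fold change of -1.52 at 7 days, and Psrc1, a spindle protein, fell by 0.84 and by 1.71.

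**Figure D3:**
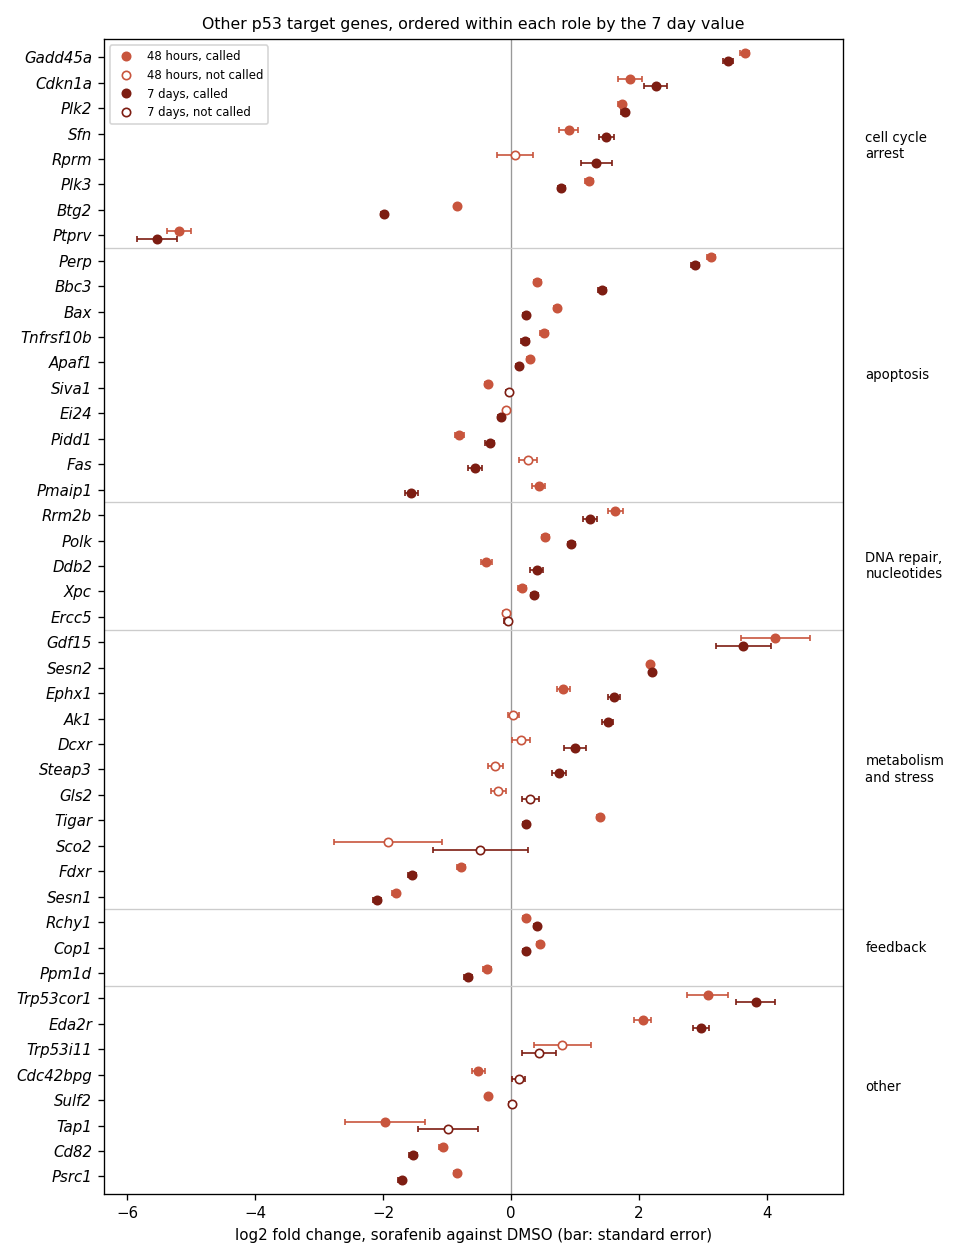
Log2 fold change of sorafenib against DMSO (x axis, linear in log2) for the 45 further p53 targets, grouped by role, at 48 hours (light) and 7 days (dark). Filled points passed the edgeR test, open points did not, and bars are standard errors. Gadd45a at 3.66 and 3.40 and Ptprv at -5.19 and -5.53 mark the 2 ends of the arrest group, and Sesn2 and Sesn1 lie on opposite sides of 0.

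Regulators of p53 also moved in both directions. Of 17 regulators and cofactors, 4 rose and 9 fell at 48 hours, and 4 rose and 8 fell at 7 days, against 26.9% of all genes higher and 27.7% lower at 48 hours and 28.9% higher and 27.9% lower at 7 days. The kinases Hipk2, Atm and Atr, which phosphorylate p53, rose, Hipk2 by 1.16 at 48 hours and 0.37 at 7 days, Atm by 0.75 and 0.65, and Atr by 0.72 and 0.56. Other kinases of the list did not rise with them. Chek1 and Chek2 did not pass at 48 hours (log2 fold change 0.10 and -0.06, adjusted p = 0.0701 and 0.244, edgeR). Without sorafenib for 48 hours replicate 2, Chek1 had 0.11 and passed (adjusted p = 0.0331, edgeR). At 7 days their groups overlapped. Trp53rka was lower in every sorafenib library than in any DMSO library of its time. Ppp1r13b, which encodes the p53 cofactor ASPP1, went from 3959.7 ± 43.3 to 1097 ± 105 normalized counts at 48 hours (log2 fold change -1.86, adjusted p = 1.97e-16, edgeR) and fell by 2.09 at 7 days. Its relative Trp53bp2 (ASPP2) fell by 0.43 at 48 hours and had a log2 fold change of -1.01 at 7 days, and Trp53bp1, a factor of double-strand break repair, fell by 0.63 at both times.

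Paralogs of the targets moved in both directions. Ccng2, the relative of Ccng1 that is known as a target of FoxO factors, went from 1475 ± 106 to 318 ± 43.7 normalized counts at 48 hours (log2 fold change -2.21, adjusted p = 3.42e-14, edgeR) and fell by 1.33 at 7 days, while Ccng1 rose. Isg20, an exonuclease related to Aen, rose by 2.42 at 48 hours and by 2.37 at 7 days. Trp53inp2 rose by 0.23 at 48 hours and fell by 0.31 at 7 days, when Trp53inp1 rose. Phlda1 had 0.09 at 48 hours (adjusted p = 0.208, edgeR) and rose by 0.26 at 7 days. Of the 5 paralogs, 3 rose and 1 fell at 48 hours, and 3 rose and 2 fell at 7 days. Of all tested genes, 26.9% were higher and 27.7% lower at 48 hours, and 28.9% higher and 27.9% lower at 7 days.

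Of 10 cell cycle genes that p53 is known to lower through p21, 1 rose and 6 fell at 48 hours, and 9 fell at 7 days, against 27.7% and 27.9% of all genes lower. Mki67 went from 13826 ± 396 to 9066 ± 399.7 normalized counts at 48 hours, a log2 fold change of -0.61 (adjusted p = 3.66e-12, edgeR), and fell by 0.80 at 7 days. Ccnb2 fell by 0.57 at 48 hours and by 0.46 at 7 days. Aurka rose by 0.33 at 48 hours and fell by 0.14 at 7 days, and Plk1 fell by 0.11 and by 0.69.

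**Figure D4:**
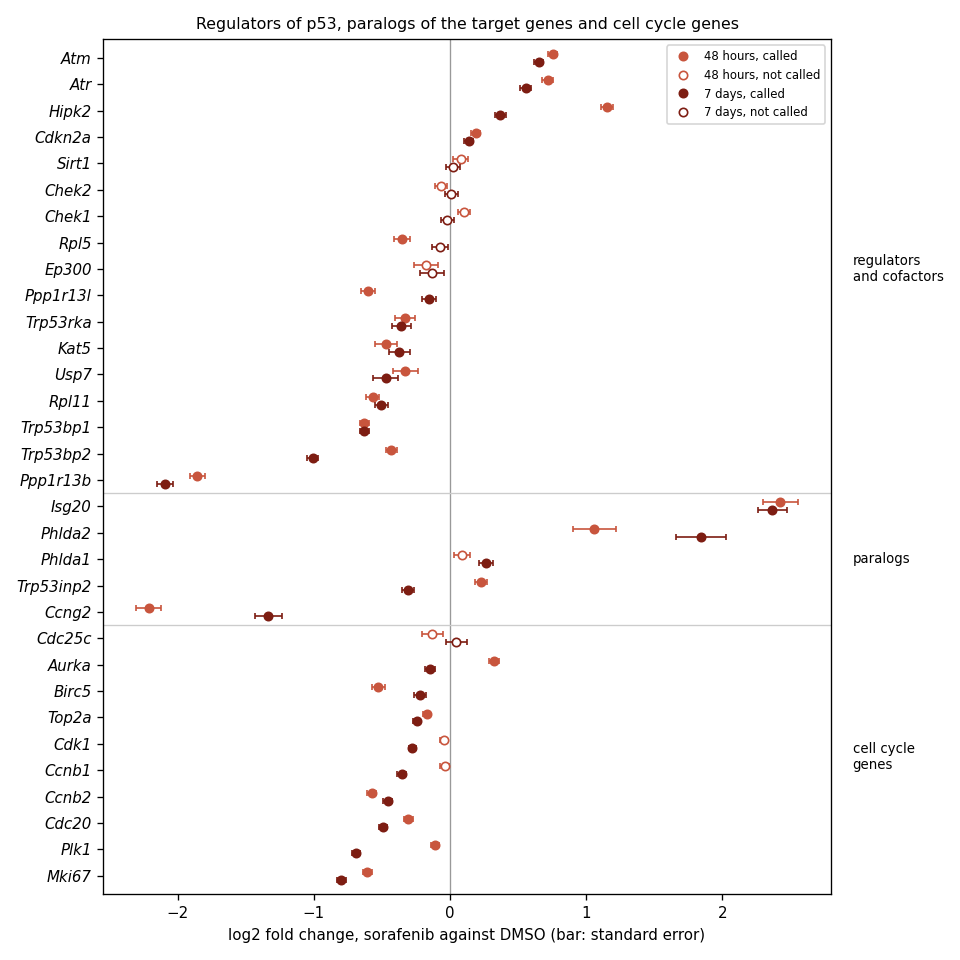
Log2 fold change of sorafenib against DMSO (x axis, linear in log2) for 17 regulators of p53, 5 paralogs of the targets and 10 cell cycle genes at 48 hours (light) and 7 days (dark). Filled points passed the edgeR test, open points did not, and bars are standard errors. Ppp1r13b at -1.86 and -2.09 is the lowest regulator, Isg20 at 2.42 and 2.37 the highest paralog, and Mki67 at -0.61 and -0.80 the lowest cell cycle gene.

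Among 10561 genes outside these lists that averaged 100 normalized counts or more, those whose log2 normalized counts followed Trp53 most closely over the 16 libraries were Hlx (Pearson r = 0.943), Tent5a (0.941) and Rps4l (0.939). These values describe 16 libraries in 4 groups, which share treatment and time, and carry no test.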

How the data were processed

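RNA of cells labelled p53-/-; Myc hepatoblasts was sequenced by the authors with the Illumina Stranded mRNA Prep kit. STAR 2.7.1a was used by the authors for alignment to GRCm39, and the submitters' processing notes also name featureCounts 2.0.6 (Subread) and DESeq2 1.40.2. The deposited values were counts per gene, whole numbers without normalization. The annotation and strand setting of the counting are not given in the sources used here. Columns not used numbered 0.

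The 10 genes, and the further lists of targets, regulators, paralogs, cell cycle genes and markers, were chosen with earlier results of these data known. Groups came from the labels. Genes with fewer than 10 counts in total were removed, as in the study's methods. For 20444 genes, counts were tested with edgeR 4.0.16 under R 4.3.3 (quasi-likelihood test, TMM, 1 coefficient per group over 16 libraries, no block), called at a Benjamini-Hochberg adjusted p (FDR) under 0.05. The contrasts were sorafenib against DMSO at each time, their difference, and DMSO at 7 days against 48 hours. Normalized counts were counts divided by the TMM-scaled library size, relative to its geometric mean. For single genes, log2(normalized count + 0.5) was compared by a two-sided exact permutation test. Levels between genes were per kilobase of GENCODE vM39 exon.

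Named genes were the 10, Cdkn1a, the 2 largest called rises and falls of each list at each time averaging 100 normalized counts or more over the 8 libraries compared, and the 3 genes most correlated with Trp53. Chek1, Chek2, Trp53rka and Gdf15 lie outside this rule, are given for comparison and are not counted among the named genes elsewhere. Response elements were searched on both strands by the p53 consensus, whose letters are its own reverse complement.

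Alternatives were DESeq2 1.42.0, its size factors or total counts only in edgeR, TMM from chromosomes 1 to 13, no filter beyond 1 count, a minimum of 10 counts in every sample, a log2 change of 1 or more in size, only the libraries compared, a replicate block, levels per kilobase, and each library left out in turn. Counts of replicates differed beyond counting error (lowest chi-square per gene 1.49 between 2 replicates). Intervals cover counting error only. The steps were tested on simulated data.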

Additional observations from a re-analysis of the deposited data

Results flagged for a closer look

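In 187 groups of 4 libraries of the named genes, a lone highest or lowest library stood apart from the other 3 in 8, by the ratio of its gap to the range (Dixon's test), and chance gives about 1 in 20 such groups. Among the 10 genes these were Trp53 in sorafenib at 7 days (replicate 1 highest, ratio 0.907), Ccng1 in the same group (replicate 2 highest, 0.954) and Phlda3 in sorafenib at 48 hours (replicate 4 lowest, 0.855). Among the further genes they were Btg2 (0.945) and Atm (0.935) in DMSO at 7 days, Rrm2b (0.844) and Hipk2 (0.958) in sorafenib at 48 hours, and Phlda1 (0.876) in DMSO at 48 hours. The Rrm2b value belongs to the library with lowered counts on its chromosome, and that of Hipk2 to the same library, where Hipk2 was highest.

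The log2 response to sorafenib differed between 7 days and 48 hours, by the interaction test in edgeR, for 34 of 49 named genes, against 36.8% of all tested genes. Most named genes were chosen for a large response at 1 of the times, so this share is not comparable with that background. The difference was 1.27 for Trp53, 1.18 for Trp53inp1, 0.63 for Phlda3, -0.16 for Mdm2, -0.17 for Mdm4, -0.42 for Zmat3 and -1.09 for Aen.

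Among the further targets the response was higher at 7 days for Pidd1 (0.47), Siva1 (0.34), Polk (0.41), Ddb2 (0.79), Bbc3 (1.02), Ephx1 (0.80) and Eda2r (0.91). It was lower for Btg2 (-1.14), Perp (-0.25), Bax (-0.49), Tigar (-1.17), Sesn1 (-0.30), Fdxr (-0.78), Cop1 (-0.21), Ppm1d (-0.29), Cd82 (-0.46), Psrc1 (-0.86) and Pmaip1 (-1.99). Of the regulators, paralogs and cell cycle genes, Ccng2 was higher (0.88), and Hipk2 (-0.79), Ppp1r13b (-0.24), Trp53bp2 (-0.58), Atr (-0.16), Trp53inp2 (-0.54), Aurka (-0.47), Mki67 (-0.19) and Plk1 (-0.58) were lower.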

How the results depend on the processing

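No named fold change that was called turned its direction under any alternative. With a log2 change of 1 or more in size as an added threshold (absolute log2 fold change), 1 of the 10 genes rose and 1 fell at 48 hours, 2 rose and 1 fell at 7 days, 2 had a higher and 1 a lower response at 7 days, and in DMSO over time 1 was higher and 1 lower. Of the further targets, 11 then rose and 4 fell at 48 hours, 14 rose and 7 fell at 7 days, 3 had a higher and 3 a lower response at 7 days, and in DMSO over time 3 were higher and 6 lower. At this threshold 1806 of 20444 tested genes rose and 1884 fell at 48 hours, and 2479 rose and 1723 fell at 7 days. The response was higher at 7 days for 1101 and lower for 864, and in DMSO over time 871 were higher and 1371 lower. With at least 10 counts in every sample, where Trp63 and Trp73 were not tested, 1 of the 10 genes fell at 7 days and 2 had a lower response. Scaled by total counts only, the median log2 difference of response over all genes went from 0.02 to 0.12, all called genes went from 3162 higher and 4353 lower to 4125 and 3292, 2 of the 10 genes had a lower response, and 9 further targets did. Leaving out 1 library gave 1 to 2 genes that fell at 7 days, the lost one being Trp73. The level of Trp53 relative to Mdm4 in DMSO at 48 hours was 1.02 in normalized counts and 2.82 per kilobase of exon. The scale also sets the order of other genes there: Ccng1 was below Mdm4 in normalized counts (1304 and 3612) and above it per kilobase (296 and 177).

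Replicate numbers did not pair the libraries: deviations of same-numbered libraries correlated by -0.00895 on average at 48 hours and 0.0678 at 7 days, and 1 of 4 DMSO libraries at each time correlated best with its own number. With the replicate block, calls over all genes went from 11158 to 10644 at 48 hours, from 11613 to 11027 at 7 days and from 7515 to 6987 for the difference of response. DESeq2 gave no adjusted p for Trp63 and Trp73 in some comparisons. Depth limits Trp63 and Trp73, with 11 and 44 counts over all libraries.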
